A study of Mus musculus with 14 samples.

Results

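The steroid receptors and the progesterone-binding membrane components were followed as 10 genes, taken by name from the 55401 genes of a count table made from labelled mouse neurons. They were the nuclear estrogen receptors Esr1 and Esr2, the membrane estrogen receptor Gper1, the progesterone receptor Pgr, the membrane components Pgrmc1 and Pgrmc2, the glucocorticoid receptor Nr3c1, the mineralocorticoid receptor Nr3c2 and the estrogen-related orphan receptors Esrra and Esrrg. All mice were wild-type C57BL/6 animals whose neurons had been infected with a recombinant adeno-associated virus, AAVretro-EGFP, which enters axon terminals and carries the fluorescent protein EGFP back to the cell body. The virus was placed in MeA or in PrL, and labelled cells of PiC were drawn up by micropipette and pooled at 4 to 5 cells a tube. Each tube gave 1 SMART-Seq2 library, a full-length method for polyadenylated RNA. There were 3 male PiC-MeA, 3 female PiC-MeA, 4 male PiC-PrL and 4 female PiC-PrL libraries, and the abbreviations are kept as the labels write them. Neither the age of the animals nor whether tubes came from separate ones is stated, so p-values measure only the spread between tubes.

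Nuclear steroid receptors are transcription factors that bind their hormone inside the cell and then act on target genes. In the brain, estrogen receptor alpha is known for its part in the circuits of social and reproductive behaviour, and the progesterone receptor gene is a classical target of estrogen. The glucocorticoid and mineralocorticoid receptors share corticosterone as a ligand. Pgrmc1 and Pgrmc2 are heme-binding proteins of intracellular membranes and do not belong to the nuclear receptor family, while the estrogen-related receptors have no known natural hormone and act on genes of energy metabolism.

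Total counts ran from 6132985 to 15392217 a library. Pan-neuronal markers reached 10 counts for 8 of 10 genes in every library, while Tubb3 and Nefl had 0 counts in all 14. The 3 male PiC-MeA libraries stood apart, with 18964 to 20014 genes holding a count, against 12479 to 14908 in the 11 other libraries, and with a count for 204 to 268 of 1117 olfactory receptor genes, against 39 to 78. All 12 of 12 astrocyte markers reached 10 counts in each of them (1989 to 2494 CPM, here counts scaled to the library total, summed over the list), against 5 to 7 in female PiC-MeA libraries (770.9 to 914.1 CPM), 7 to 10 in male PiC-PrL libraries (1944 to 4854 CPM) and 8 to 11 in female PiC-PrL libraries (1663 to 2322 CPM). Endothelial and mural markers reached 10 counts for 5 to 8 of 12 genes (35.85 to 162.4 CPM), against 0 to 1 in female PiC-MeA libraries (0.545 to 2.90 CPM), 1 to 3 in male PiC-PrL libraries (15.9 to 143.5 CPM) and 1 in each female PiC-PrL library (2.09 to 106.2 CPM). Oligodendrocyte markers summed to 431.8 to 2384 CPM in male and 478.8 to 2656 CPM in female PiC-MeA libraries. In PiC-PrL they summed to 331.2 to 2487 CPM in male and 312.4 to 2393 CPM in female libraries. Microglia markers summed to 299.6 to 497.9 CPM in male and 182.6 to 671.9 CPM in female PiC-MeA libraries. In PiC-PrL they summed to 382.2 to 763.7 CPM in male and 237.6 to 423.4 CPM in female libraries, and groups overlapped in both lists. Excitatory neuron markers summed to 1493 to 3339 CPM in male and 2240 to 2561 CPM in female PiC-MeA libraries. In PiC-PrL they summed to 1530 to 2217 CPM in male and 1789 to 2592 CPM in female libraries. Inhibitory neuron markers summed to 1647 to 4240 CPM in male PiC-MeA, 1039 to 1549 CPM in female PiC-MeA, 800.8 to 1550 CPM in male PiC-PrL and 773.7 to 6604 CPM in female PiC-PrL libraries. Their median log2 change was 3.01 for sex in PiC-MeA (11 of 14 tested genes positive) and -2.65 between the projections in females (12 of 14 negative), with no gene passing. Pan-neuronal markers summed to 10180 to 12210 CPM in male PiC-MeA and 14300 to 16740 CPM in male PiC-PrL libraries, without overlap. In females they summed to 10320 to 12700 CPM in PiC-MeA and 11190 to 16930 CPM in PiC-PrL libraries. Between the projections averaged over sexes, 1 of 8 tested pan-neuronal and 1 of 12 astrocyte markers passed, lower in PiC-MeA, as did 0.63% of all tested genes. The part of these measures in the results was not tested. Since a tube is a small pool, fewer cells that express a gene and less RNA of it per cell cannot be told apart.

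Esr1 and Pgr were present in some tubes and near 0 in others, while Pgrmc1 was high in all 14, and the sequences before their starts are shown because they also differ in base composition. RefSeq (build GRCm38.p6) gave promoters for 9 of the 10 genes, with 13 starts in all, and none for Nr3c1. The 250 bases before the start, all on the plus strand and written 5′ to 3′ with CG dinucleotides in capitals, lie at chr9:8899583-8899832 for Pgr, at chr10:4611739-4611988 and chr10:4709908-4710157 for the 2 starts of Esr1, and at chrX:36597943-36598192 for Pgrmc1.
Pgr: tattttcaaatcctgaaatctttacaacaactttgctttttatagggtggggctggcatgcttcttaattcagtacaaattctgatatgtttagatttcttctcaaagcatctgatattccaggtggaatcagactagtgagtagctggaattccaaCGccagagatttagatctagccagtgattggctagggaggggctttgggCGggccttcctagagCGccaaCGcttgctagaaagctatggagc
Esr1, start 1: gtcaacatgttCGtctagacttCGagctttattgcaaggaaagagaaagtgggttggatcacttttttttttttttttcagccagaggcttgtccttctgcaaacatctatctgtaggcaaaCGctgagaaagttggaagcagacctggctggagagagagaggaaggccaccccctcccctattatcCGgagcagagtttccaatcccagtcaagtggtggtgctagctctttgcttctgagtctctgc
Esr1, start 2: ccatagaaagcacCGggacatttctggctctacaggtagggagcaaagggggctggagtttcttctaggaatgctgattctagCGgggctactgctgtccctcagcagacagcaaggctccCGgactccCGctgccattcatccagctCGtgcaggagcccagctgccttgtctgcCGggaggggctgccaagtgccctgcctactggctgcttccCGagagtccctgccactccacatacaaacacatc
Pgrmc1: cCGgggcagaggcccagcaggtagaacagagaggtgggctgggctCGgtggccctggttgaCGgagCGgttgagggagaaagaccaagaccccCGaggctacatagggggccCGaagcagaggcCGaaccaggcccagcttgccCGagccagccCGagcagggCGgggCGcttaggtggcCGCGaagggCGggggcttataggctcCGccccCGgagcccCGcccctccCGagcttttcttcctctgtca

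The Pgr window held 4 CG dinucleotides at 43.6% GC, and those of Esr1 held 4 and 7 at 47.6% and 59.6% GC. The Pgrmc1 window held 18 at 69.6% GC. The ratio of observed to expected CG was 0.342 for Pgr, 0.283 and 0.317 for Esr1 and 0.600 for Pgrmc1, with a median of 0.374 over 32851 RefSeq windows of the same length, whose median GC was 52.4%. The window of Esrra, a gene near 0 in most tubes, held 22 CG dinucleotides, and that of Nr3c2 held 17. Both strands of the 13 windows were searched for the half-sites AGGTCA and AGAACA, for the palindromic estrogen and steroid response elements, and for the estrogen-related receptor element TCAAGGTCA, which contains AGGTCA. The only match was 1 AGAACA before Pgrmc1. Of all windows, 14.02% held AGGTCA, 16.1% AGAACA, 0.387% TCAAGGTCA, 0.0639% the estrogen response element and 0.00913% the steroid response element. These matches describe letters in the window only.

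Per kb of exon, Pgrmc1 was by far the most abundant of the 10 transcripts. Its median over the 14 libraries was 359 CPM per kb after TMM scaling, a correction of library sizes for composition, and it exceeded Nr3c1, the next, in 14 of 14 libraries (exact sign-flip permutation test, two-sided, adjusted p = 0.0011 over 9 neighbouring pairs). Medians in CPM per kb then ran over Nr3c1 at 16.2, Nr3c2 at 6.91, Pgrmc2 at 5.63, Pgr at 3.48 and Esrrg at 2.35. Esr1 and Esrra had medians of 0.101 each and Esr2 of 0.0328. Gper1 had 0 counts in all 14 libraries, which allows a level of up to 0.192 to 0.433 CPM, the worth of 3 counts in each library, counting error only. The neuronal genes Tubb3 and Nefl also had 0 counts in all 14 libraries. A 0 throughout therefore need not mean that the transcript was absent, and the limit does not cover how reads were assigned to genes. Esr2 had a count in 9 libraries and so stood above Gper1 by construction. The 7 other neighbouring pairs did not differ beyond their spread (adjusted p = 0.0582 to 0.942). The pairs follow the order of medians in these same 14 libraries, pooled over the 4 groups, so they were not chosen independently of the values.

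**Figure D1:**
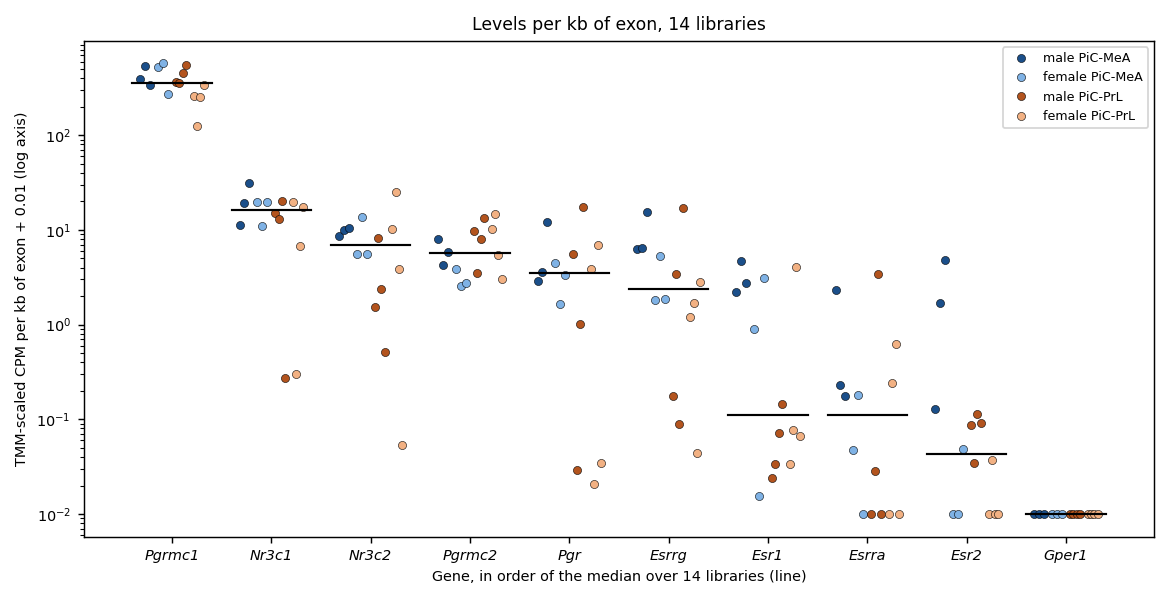
TMM-scaled CPM per kb of exon (log axis, 0.01 added) of the 10 genes in each of 14 libraries, with colours for the 4 groups and a line at the median over all libraries. Pgrmc1 lies above every other gene in all libraries, Esr1 is spread from 0.00554 to 4.66 CPM per kb, and Gper1 lies at 0 throughout.

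The members differed widely in how even they were between tubes. The coefficient of variation over 14 libraries was 0.349 for Pgrmc1, 0.575 for Nr3c1 and 0.582 for Pgrmc2, but 0.865 for Nr3c2, 1.10 for Pgr, 1.19 for Esrrg, 1.32 for Esr1, 2.01 for Esrra and 2.65 for Esr2. The median over all 14599 tested genes was 1.177, and its quartiles were 0.7485 and 1.812. Pgrmc1, Nr3c1 and Pgrmc2 had at least 10 counts in all 14 libraries. Over the 3897 tested genes with such counts the median was 0.5931, near the values of Nr3c1 and Pgrmc2. Of the 7 members with a mean of at least 10 CPM, 4 (Esr1, Pgr, Nr3c2 and Esrrg) fell under 1 CPM in at least 1 library, as did 57.6% of all 8697 genes with such a mean.

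Esr1, estrogen receptor alpha (mm10 chromosome 10, 4611593 to 5005614, plus strand), was present at 100 counts or more in 5 of 6 PiC-MeA libraries and in 1 of 8 PiC-PrL libraries. In male PiC-MeA replicates 1 to 3 it had 29.9, 63.6 and 37.7 TMM-scaled CPM, and in female PiC-MeA replicates 12.3, 0.0756 and 42.8 CPM. Male PiC-PrL replicates 1 to 4 had 0.192, 0.326, 0.834 and 1.85 CPM, and female PiC-PrL replicates 0.322, 0.921, 55.6 and 0.772 CPM. All 3 male PiC-MeA libraries were above all 4 male PiC-PrL libraries, as for 19.2% of all tested genes. In females the projections overlapped, because female PiC-MeA replicate 2 was low and female PiC-PrL replicate 3 was high. At least 100 counts in 5 or more PiC-MeA and in no more than 1 PiC-PrL library was a pattern of 65 of 14599 tested genes (0.445%). At least 100 counts in 7 or more PiC-PrL and in no more than 1 PiC-MeA library was that of 5 (0.0342%). The limit of 100 counts was chosen after the values were seen, and the first pattern's numbers of libraries are those of Esr1 itself. The PiC-MeA libraries include the 3 with the most detected genes.

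The fitted change of Esr1 did not pass the threshold, an edgeR quasi-likelihood adjusted p of 0.05 over 14599 genes, in any comparison. Between PiC-MeA and PiC-PrL in males it was 5.76 ± 2.16 on the log2 scale (SE, n = 3 and 4, adjusted p = 0.117), between the projections in females 0.35 ± 1.86 (adjusted p = 0.999). DESeq2 gave 5.83 in males (adjusted p = 0.00401) and limma voom 6.39 (adjusted p = 0.0215), and both called Esr1 there, with 14.8% of genes called by DESeq2 and 17.9% by voom. Over the alternatives run, the adjusted p in males ran from 0.00401 to 1, the highest with the number of genes with a count as a covariate. In females the value was 4.63 without female PiC-PrL replicate 3 (adjusted p = 0.403) and -1.14 without female PiC-MeA replicate 3, and it was -0.04 without female PiC-PrL replicate 1, 2 or 4. Male minus female, Esr1 gave 1.25 ± 2.02 in PiC-MeA (adjusted p = 0.9999) and -4.16 ± 1.97 in PiC-PrL (adjusted p = 0.346), which became 0.21 without female PiC-PrL replicate 3.

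Esr2, estrogen receptor beta (chromosome 12, 76120419 to 76177259, minus strand), reached 10 counts in 2 of 14 libraries. Male PiC-MeA replicates 1 to 3 had 5, 69 and 111 counts, and female PiC-MeA replicates 0, 0 and 2. Male PiC-PrL libraries had 4, 1, 5 and 3 counts and female PiC-PrL libraries 0, 1, 0 and 0. Both libraries above 10 counts were male PiC-MeA libraries, the group with the most detected genes. Esr2 did not pass the filter on low counts. With no filter, over 27912 genes, edgeR gave 6.92 ± 3.41 on the log2 scale for male minus female in PiC-MeA (unadjusted p = 0.0423, adjusted p = 0.295), a fitted change that rests on 2 counts in the female libraries. Averaged over projections the sex difference was 4.97 ± 2.09 (unadjusted p = 0.0175, adjusted p = 0.355), and no comparison of Esr2 passed. Gper1, a G protein-coupled receptor for estrogen (chromosome 5, 139423151 to 139427800, plus strand), had no count to compare.

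Pgr, the progesterone receptor (chromosome 9, 8899833 to 8968611, plus strand), was present in all 6 PiC-MeA libraries and in 5 of 8 PiC-PrL libraries at 100 counts or more. Its TMM-scaled CPM was 24.9, 30.9 and 103 in male PiC-MeA replicates 1 to 3 and 38.2, 13.99 and 28.5 in female PiC-MeA replicates. In male PiC-PrL replicates 1 to 4 it was 48.0, 0.163, 8.62 and 151, and in female PiC-PrL replicates 33.3, 0.0921, 58.8 and 0.210. Pgr was thus near 0 in male replicate 2 and female replicates 2 and 4 of PiC-PrL, the group averages were 53.0 ± 43.5, 26.9 ± 12.2, 51.9 ± 69.2 and 23.1 ± 28.5 CPM in the same order of groups (SD, n = 3, 3, 4 and 4), and groups overlapped in every comparison. None of its changes exceeded its SE.

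The 6 libraries with at least 100 counts of Esr1 all had at least 100 counts of Pgr too. Another 5 libraries had Pgr without Esr1, none had Esr1 without Pgr, and 3 had neither. The same nesting held for the other widespread members. All 6 libraries with Esr1 also had at least 100 counts of Nr3c1, of Nr3c2, of Pgrmc1 and of Pgrmc2, and 5 of the 6 had Esrrg. The pattern is therefore not particular to Esr1 and Pgr, since Pgr reached 100 counts in 11 of 14 libraries. Of the 5 with Pgr alone, 1 was female PiC-MeA replicate 2, with 185 counts of Pgr and 1 of Esr1, and 4 were PiC-PrL libraries with 124 to 1633 counts of Pgr and 3 to 20 of Esr1. Tubes hold several cells, so these counts do not say whether the same cells held both transcripts.

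**Figure D2:**
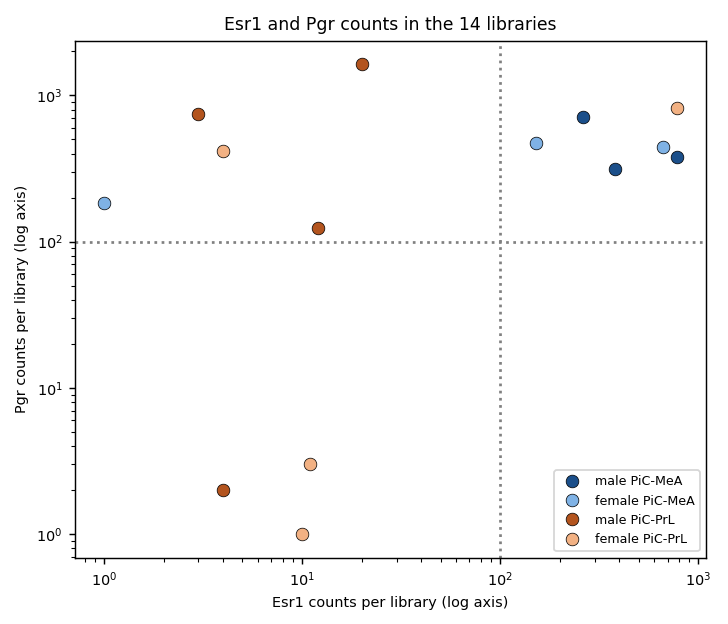
Counts of Esr1 (x) and Pgr (y) in each of the 14 libraries on log axes, with dotted lines at 100 counts and colours for the 4 groups. The upper right corner holds 6 libraries, 5 of them PiC-MeA, and no library lies in the lower right corner.

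Pgrmc1 (chromosome X, 36598206 to 36606079, plus strand), a membrane component that binds heme and has been linked to progesterone signalling, was the steadiest member, and its group mean was lowest in female PiC-PrL tubes. Male PiC-MeA replicates 1 to 3 had 724, 1003 and 635 TMM-scaled CPM, and female PiC-MeA replicates had 977, 1070 and 507 CPM. Male PiC-PrL replicates 1 to 4 had 678, 656, 841 and 1032 CPM, against 487, 233, 469 and 627 CPM in female PiC-PrL replicates. All 4 male PiC-PrL libraries were above all 4 female ones, as for 1.49% of all tested genes. The lowest male and the highest female differed little, though, and on CPM of total counts the sexes overlapped. In females the projections overlapped, since female PiC-PrL replicate 4 lay above female PiC-MeA replicate 3. Group averages were 787 ± 192, 851 ± 302, 802 ± 174 and 454 ± 163 CPM in male PiC-MeA, female PiC-MeA, male PiC-PrL and female PiC-PrL libraries (SD, n = 3, 3, 4 and 4).

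Neither difference of Pgrmc1 from female PiC-PrL neurons passed the edgeR threshold. Male minus female in PiC-PrL was 0.82 ± 0.33 on the log2 scale (adjusted p = 0.287), and PiC-MeA minus PiC-PrL in females was 0.91 ± 0.35 (adjusted p = 0.403). Both share the 4 female PiC-PrL libraries. With any 1 library left out the first stayed between 0.60 and 1.02 and the second between 0.69 and 1.10, with no call. The sex difference in PiC-MeA and the projection difference in males were smaller than their SE, and the test of whether the sex difference differed between the projections gave -0.93 ± 0.50 (adjusted p = 0.387).

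Pgrmc2 (chromosome 3, 41066326 to 41083046, minus strand), a related heme-binding membrane protein, was far lower per kb, and had 109 to 513 counts in every library. It was at 25.9, 13.9 and 18.8 TMM-scaled CPM in male PiC-MeA replicates 1 to 3 and at 12.6, 8.24 and 8.94 CPM in female PiC-MeA replicates. In male PiC-PrL replicates 1 to 4 it was at 31.7, 11.5, 26.2 and 43.3 CPM, and in female PiC-PrL replicates at 32.8, 47.3, 17.8 and 9.75 CPM. The male PiC-MeA libraries were above the female ones, as for 17.5% of all tested genes, and the projections overlapped in each sex. PiC-MeA minus PiC-PrL in females was -1.44 ± 1.26 on the log2 scale (adjusted p = 0.839). The ratio of Pgrmc1 to Pgrmc2 per kb had medians of 59.1 in male PiC-MeA, 135 in female PiC-MeA, 48.8 in male PiC-PrL and 36.0 in female PiC-PrL libraries, and its range over single libraries was 8.62 to 227.

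**Figure D3:**
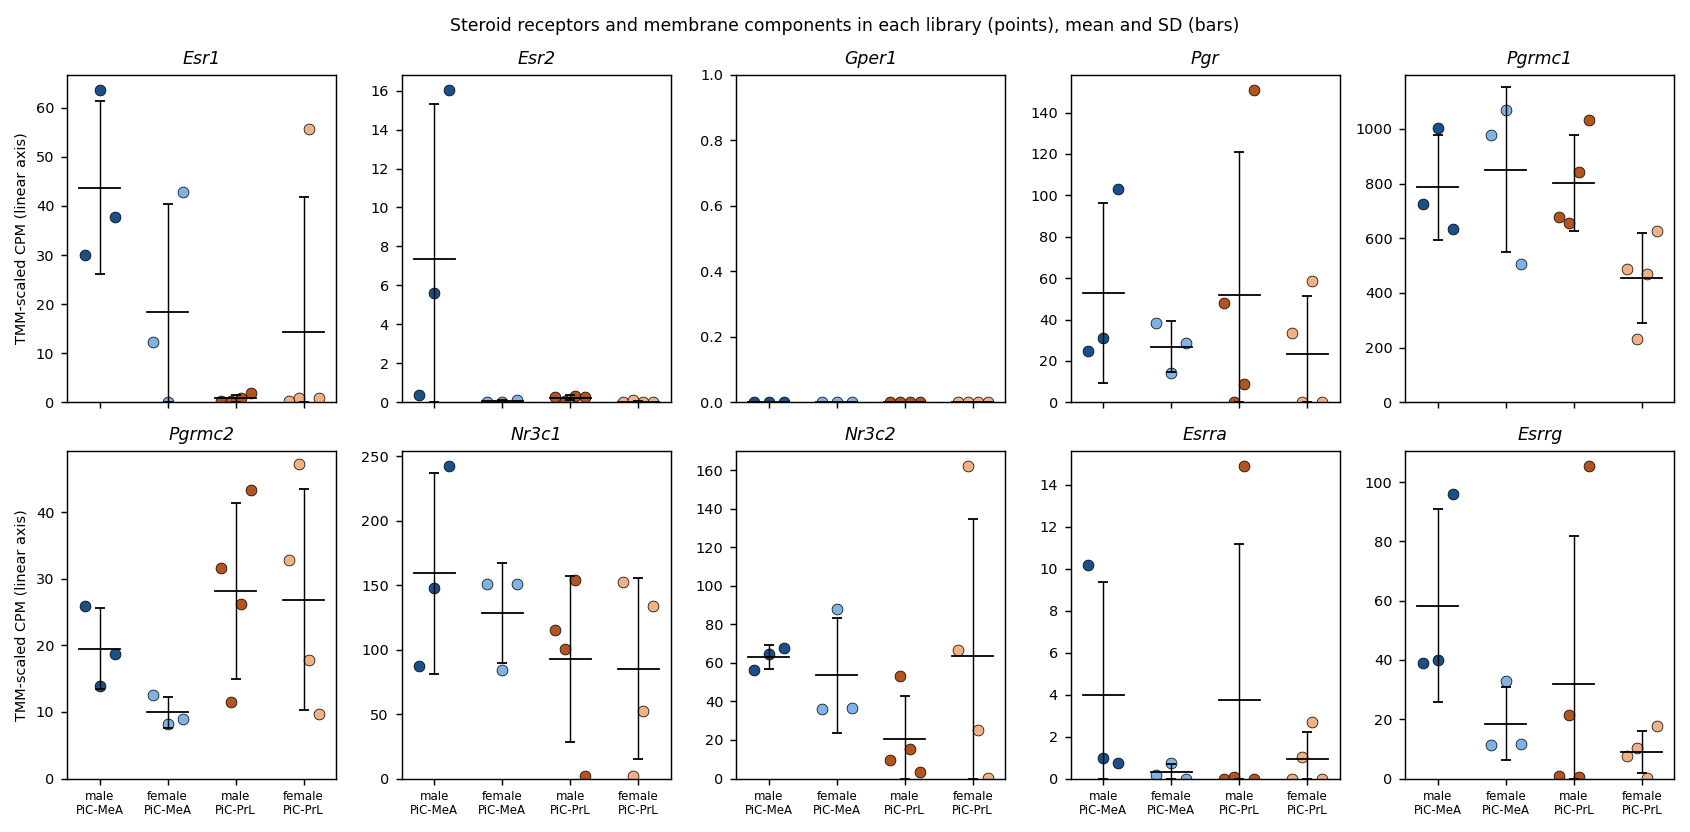
TMM-scaled CPM (linear axes from 0, a different scale in each panel) of the 10 genes in each library (points) of the 4 groups, with the mean (line) and SD (bars, cut at 0). Esr1 is at 29.9 CPM or more in the 3 male PiC-MeA libraries and at 1.85 CPM or less in the 4 male PiC-PrL libraries, and the mean of Pgrmc1 is lowest in female PiC-PrL libraries.

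Nr3c1, the glucocorticoid receptor (chromosome 18, 39410545 to 39519421, minus strand), was present at 100 counts or more in 12 of 14 libraries. Its TMM-scaled CPM was 87.6, 148 and 242 in male PiC-MeA replicates 1 to 3 and 151, 83.9 and 150 in female PiC-MeA replicates. Male PiC-PrL replicates 1 to 4 had 115, 101, 154 and 2.03 CPM and female PiC-PrL replicates 153, 2.21, 52.3 and 134 CPM. Groups overlapped in every comparison, no change exceeded its SE, and 2 tubes stood far below the rest. Those were male PiC-PrL replicate 4 and female PiC-PrL replicate 2, with 22 and 24 counts. They were also the 2 libraries with the fewest genes at 10 counts, 7619 and 7780, a measure whose part was not tested, and 1 of them had the highest Pgr level of all tubes.

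Nr3c2, the mineralocorticoid receptor (chromosome 8, 76899442 to 77245012, plus strand), was even in male PiC-MeA tubes and uneven elsewhere. It had 56.1, 64.7 and 68.0 TMM-scaled CPM in male PiC-MeA replicates 1 to 3 and 36.1, 88.2 and 36.4 CPM in female PiC-MeA replicates. In male PiC-PrL replicates 1 to 4 it had 9.81, 53.1, 15.4 and 3.23 CPM, and in female PiC-PrL replicates 66.9, 162, 25.1 and 0.281 CPM. The male PiC-MeA libraries were all above the male PiC-PrL libraries, as for 19.2% of all tested genes. That difference was 1.62 ± 1.27 on the log2 scale (adjusted p = 0.566), and male minus female in PiC-PrL was -1.64 ± 1.203 (adjusted p = 0.629). Exons of Nr3c2 overlap those of the antisense gene Gm10649, which had up to 503 counts. Neither the strand setting of the counting nor its treatment of shared reads is stated. Reads of the overlap may therefore be mixed between the 2 genes or left uncounted.

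Both corticosteroid receptors reached 100 counts in 11 of the 14 libraries. A single library had Nr3c1 alone, another had Nr3c2 alone, and in male PiC-PrL replicate 4 both were low. Female PiC-PrL replicate 2, low in Nr3c1, had the highest Nr3c2 level of all tubes, 162 CPM.

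The estrogen-related receptor Esrrg (chromosome 1, 187608791 to 188214885, plus strand) was higher in male than in female PiC-MeA tubes without overlap, as were 17.5% of all tested genes. It had 39.1, 40.1 and 95.9 TMM-scaled CPM in male PiC-MeA replicates 1 to 3 and 11.3, 32.8 and 11.5 CPM in female PiC-MeA replicates. Male PiC-PrL replicates 1 to 4 had 1.03, 21.3, 0.487 and 105 CPM and female PiC-PrL replicates 7.48, 10.4, 0.214 and 17.6 CPM. In PiC-PrL the sexes overlapped, and male replicate 4 alone held most of the male counts. Male minus female in PiC-PrL was 1.84 ± 1.51 on the log2 scale (adjusted p = 0.682) and -0.23 without that library, and the change in PiC-MeA was smaller than its SE. Esrra (chromosome 19, 6910977 to 6921813, minus strand) had 129, 12 and 5 counts in male PiC-MeA libraries, 2, 10 and 0 in female PiC-MeA, 0, 1, 214 and 0 in male PiC-PrL and 0, 11, 38 and 0 in female PiC-PrL libraries. A single tube led each male group, and male minus female in PiC-MeA was 3.66 ± 2.88 on the log2 scale (adjusted p = 0.830). Esrra shares exon bases with Trmt112 on the other strand, which had up to 1697 counts, so its few counts are uncertain.

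Over the 8 members that passed the filter on low counts, all but Esr2 and Gper1, edgeR called none in any of 7 comparisons. Among all 14599 genes it called 88 between PiC-MeA and PiC-PrL in males (0.603%, with 0.0685% higher and 0.534% lower in PiC-MeA), 120 between the projections averaged over sexes (0.822%, with 0.192% higher and 0.63% lower), 2 between the sexes averaged over projections (0.0137%) and none (0%) in the other 4. An unadjusted p under 0.05 was reached by Esr1 between the projections in males and averaged over sexes, by Pgrmc1 between the projections in females, and by both in the sex comparison of PiC-PrL, where 14.3% of all genes did. The shares of all genes were 22.2% between the projections in males, 17.4% averaged over sexes and 11.1% in females. No member reached it in the other comparisons, where 12.4% of genes did for sex in PiC-MeA, 10.7% for sex averaged over projections and 15.6% for the difference between the sex differences. DESeq2 and voom called Esr1 in males between the projections and no other member in any comparison. DESeq2 called 7.59% of genes for sex in PiC-PrL, 5.68% for sex in PiC-MeA, 4.59% between the projections in females, 4.92% and 10.9% for sex and projection averaged over the other factor, and 8.46% for the interaction. Voom called 0.0548%, 12.1%, 0.212%, 0.0274%, 8.75% and 4.99% in the same order. Of the 32 changes in the comparisons within 1 sex or 1 projection, 9 were larger than their SE, and their adjusted p are those given beside the genes.

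In the number of members whose groups did not overlap, the sex comparison of PiC-PrL gave 1 of 8 (Pgrmc1, higher in males), where 1.49% of all genes were higher and 2.02% lower without overlap. Sex in PiC-MeA gave 2 of 8 (Esrrg and Pgrmc2, higher in males) against a background of 17.5% higher and 8.76% lower. The projections gave 2 of 8 in males (Esr1 and Nr3c2, higher in PiC-MeA), with 19.2% of all genes higher and 6.23% lower, and 0 of 8 in females, with 4.47% higher and 3.97% lower. Both comparisons of male PiC-MeA libraries thus lay near their background. The medians depended on single tubes. Median changes of the 8 members on the log2 scale were 0.43 between the projections in males, 0.29 in females, 0.98 for sex in PiC-MeA and 0.47 for sex in PiC-PrL. Over all genes tested the medians were 0.16, -0.06, 0.12 and -0.02 in the same comparisons. For sex in PiC-PrL the members' median turned to -0.22 without male PiC-PrL replicate 4, to -0.07 without replicate 3 and to -0.56 with the number of genes with a count as a covariate. In females it turned to -0.12 without female PiC-PrL replicate 4 and to -0.19 without female PiC-MeA replicate 3, where 9 members passed the filter. Between the projections in males it was 0.18 without male PiC-PrL replicate 1, and for sex in PiC-MeA 0.53 without male PiC-MeA replicate 3.

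**Figure D4:**
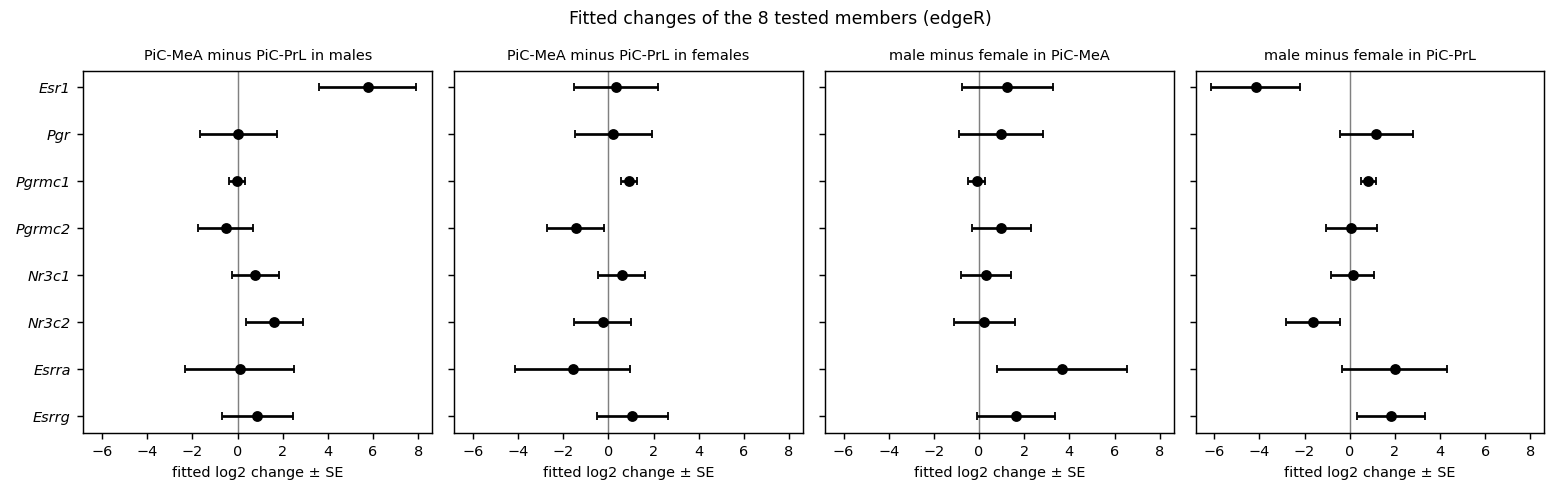
Fitted log2 changes (points) with their SE (bars) of the 8 tested members from edgeR, for the projections within each sex and the sexes within each projection. The points of Pgrmc1 have the narrowest bars, and the change of Esr1 between PiC-MeA and PiC-PrL in males, 5.76 ± 2.16, lies farthest from 0.

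Genes that work with these receptors were taken from 7 lists. Targets of the estrogen-related receptors, mostly genes of mitochondrial energy metabolism, were lower in male PiC-MeA than in male PiC-PrL tubes for 26 of 31 tested genes (median -0.75, against 0.16 over all genes, of which 53.4% had positive changes), and 3 passed, where 0.534% of all genes were called lower. For sex in PiC-MeA the list was likewise lower in males for 26 of 31 genes (median -0.79, against 0.12 over all genes), where none passed. Receptor chaperones were lower in male PiC-MeA than in male PiC-PrL tubes for 12 of 14 genes (median -0.70), so the direction was shared by another list. Levels of the genes of these lists are TMM-scaled CPM. Sdhb, a subunit of succinate dehydrogenase, fell to 166 ± 53.3 CPM in male PiC-MeA libraries, against 722 ± 104 CPM in male PiC-PrL libraries (log2 -2.12 ± 0.34, adjusted p = 0.0067). Mdh2, malate dehydrogenase of mitochondria, fell to 344 ± 199 CPM, against 1295 ± 411 CPM (-1.91 ± 0.39, adjusted p = 0.0322). Cycs, cytochrome c, fell to 283 ± 51.8 CPM, against 773 ± 102 CPM (-1.45 ± 0.31, adjusted p = 0.0419). These genes fell in the libraries with 18964 to 20014 detected genes, and with that number as a covariate their changes turned to 0.25, 1.00 and 0.00485, each with an adjusted p of 1. The share of mitochondrial counts was 4.796%, 9.23% and 15.3% in male PiC-MeA replicates 1 to 3, against 3.81% to 8.39% in male PiC-PrL libraries. In the same 3 replicates Sdhb had 2864, 1840 and 856 counts, and Mdh2 7100, 3753 and 1163 counts. Replicate 3, with the largest mitochondrial share and the smallest total, 6132985 counts, had the fewest of both, and the part of this in the result was not tested. As the number of detected genes separates this group from all others, the covariate and the group cannot be told apart. With any 1 library left out Sdhb passed in 13 of 14 fits (adjusted p = 0.0688 without male PiC-MeA replicate 2), Mdh2 in 10 and Cycs in 5.

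In females the same list had 17 positive and 14 negative changes between the projections and none passed. Averaged over sexes, Sdhb was lower in PiC-MeA (-1.16 ± 0.23, adjusted p = 0.0248), a call that held in 8 of 14 fits with 1 library left out (adjusted p up to 0.0805). In females its levels were 398 ± 22.6 CPM in PiC-MeA and 457 ± 138 CPM in PiC-PrL libraries, and the projection difference of males minus that of females was -1.92 ± 0.45 (adjusted p = 0.152). Paqr3, a member of the family that holds the membrane progestin receptors, was lower there too (-2.49 ± 0.54, adjusted p = 0.0445). It had 51.7 ± 45.3 CPM in male PiC-MeA and 29.1 ± 1.23 CPM in female PiC-MeA libraries, against 183.1 ± 85.4 CPM in male PiC-PrL and 258 ± 199 CPM in female PiC-PrL libraries. The call of Paqr3 was lost with DESeq2 size factors (adjusted p = 0.052) and held with 4 of 14 libraries left out in turn.

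No other gene of the 7 lists passed. Among receptor coregulators, 0 of 17 tested genes passed. Those with the smallest p were Ncoa3, a coactivator, at 23.6 ± 7.25 CPM in male PiC-MeA and 102 ± 50.8 CPM in male PiC-PrL libraries, and Ncoa1, a related coactivator, at 53.6 ± 23.0 CPM in female PiC-MeA and 140 ± 3.57 CPM in female PiC-PrL libraries. Ncoa1 stood also first for sex in PiC-MeA, at 128 ± 44.8 CPM in male libraries, against 53.6 ± 23.0 CPM in female libraries, and Nrip1, a corepressor, for sex in PiC-PrL, at 12.7 ± 15.9 CPM in male and 75.6 ± 12.3 CPM in female libraries. Of 14 receptor chaperones none passed. Between the projections in males, Hspa8, a constitutive heat shock protein, had the smallest p (edgeR adjusted p = 0.0587). It was at 2630 ± 1450 CPM in male PiC-MeA and 6801 ± 1081 CPM in male PiC-PrL libraries. Cdc37, a cochaperone for kinases, was first for sex in PiC-MeA, at 43.3 ± 28.3 CPM in male and 224 ± 69.9 CPM in female libraries. Ptges3, the p23 cochaperone, was first between the projections in females, at 136 ± 54.4 CPM in PiC-MeA and 365 ± 250 CPM in PiC-PrL libraries, and Ppid, an immunophilin, for sex in PiC-PrL, at 319 ± 137 CPM in male and 138 ± 73.2 CPM in female libraries. Averaged over sexes, Ptges3 was lower in PiC-MeA (-1.26 ± 0.34, edgeR adjusted p = 0.0564), the smallest adjusted p of the chaperones in any comparison.

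Steroid synthesis and metabolism had 15 tested genes of 25 in the table, and 0 passed. Cyp19a1, aromatase, averaged 3.25 ± 2.94 CPM in male PiC-MeA and 0.0160 ± 0.0321 CPM in male PiC-PrL libraries (adjusted p = 0.079). Cyp11a1, the side-chain cleavage enzyme, averaged 2.10 ± 2.50 CPM in male and 0.0252 ± 0.0437 CPM in female PiC-MeA libraries. In male PiC-MeA replicates 1 to 3 Cyp19a1 had 83, 11 and 16 counts and Cyp11a1 63, 11 and 3, so replicate 1 led both. Hsd17b11, a hydroxysteroid dehydrogenase, averaged 1.11 ± 1.92 CPM in female PiC-MeA and 0.0201 ± 0.0402 CPM in female PiC-PrL libraries. These rest on 44 counts in female PiC-MeA replicate 2 and on 1 count in female PiC-PrL replicate 1. Averaged over sexes its projection difference was 6.87 ± 1.69 on the log2 scale (edgeR adjusted p = 0.0552), the smallest adjusted p of the list. All 3 genes were low, and no gene of the list differed beyond the threshold. Hsd17b12, a related enzyme, was first for sex in PiC-PrL, at 22.1 ± 14.6 CPM in male and 86.5 ± 83.8 CPM in female libraries.

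Of 15 tested glucocorticoid-responsive genes and 21 estrogen-responsive genes, none passed. Klf9, a transcription factor induced by corticosteroids, had the smallest p of its list between the projections in females, at 92.8 ± 54.8 CPM in PiC-MeA and 377 ± 227 CPM in PiC-PrL libraries, and for sex in PiC-PrL, where male libraries had 157 ± 55.7 CPM. Gjb6, a connexin that is also an astrocyte marker, led for sex in PiC-MeA, at 26.6 ± 11.8 CPM in male and 0 in female libraries, and Sult1a1, a sulfotransferase, between the projections in males, at 12.6 ± 7.40 CPM in PiC-MeA and 0 in PiC-PrL libraries. Among estrogen-responsive genes Tac1, a tachykinin precursor, led between the projections in males, at 12.7 ± 14.2 CPM in PiC-MeA and 0.0334 ± 0.0386 CPM in PiC-PrL libraries, and for sex in PiC-PrL, where female libraries had 45.2 ± 67.6 CPM. Myc, a growth-related transcription factor, led the other comparisons, at 6.96 ± 5.41 CPM in male PiC-MeA, 0 in female PiC-MeA and 12.6 ± 20.7 CPM in female PiC-PrL libraries.

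The list of membrane steroid receptors and Pgrmc partners had 17 tested genes, of which Paqr3 alone passed and in 1 comparison. Paqr3 also had the smallest p between the projections in females (adjusted p = 0.388). Insig1, a sterol sensor of the endoplasmic reticulum, led in males, at 40.5 ± 20.3 CPM in PiC-MeA and 173 ± 89.6 CPM in PiC-PrL libraries. Egfr, the epidermal growth factor receptor, led for sex in PiC-MeA, at 13.8 ± 6.38 CPM in male and 0.0214 ± 0.0371 CPM in female libraries, and Paqr4 for sex in PiC-PrL, at 0.627 ± 0.997 CPM in male and 21.0 ± 8.01 CPM in female libraries. Among estrogen-related receptor targets Sdhb led for sex in PiC-MeA (adjusted p = 0.298), at 166 ± 53.3 CPM in male and 398 ± 22.6 CPM in female libraries. Atp5b, an ATP synthase subunit, led between the projections in females, at 2162 ± 119 CPM in PiC-MeA and 1196 ± 170 CPM in PiC-PrL libraries, and Idh3a, an isocitrate dehydrogenase subunit, for sex in PiC-PrL, at 733 ± 228 CPM in male and 409 ± 89.3 CPM in female libraries.

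For 7 members with 10 counts in at least 7 libraries, the genes with the most similar pattern over the 14 libraries were listed by Pearson's r of log2(CPM + 1). The search covered 12337 of the tested genes, and predicted genes, pseudogenes and some other classes were left out. The points share library and depth, and the values are descriptions. Tubes near 0 weigh heavily on them, and Spearman's rho was 0.464 to 0.596 for the 3 genes named for Nr3c1, 0.538 to 0.678 for those of Pgr, and 0.635 to 0.930 for those of the other 5 members. Esr1 was most like Alms1 (r = 0.937), Chst9 (0.927) and Ap1g1 (0.922). Pgr was closest to Scap (0.910), Nudt19 (0.895) and Rars2 (0.893). Both corticosteroid receptors had other neighbours, namely Rwdd2a (0.952), Sh3bp5 (0.952) and Khdrbs2 (0.943) for Nr3c1, and Vps39 (0.914), Mpdz (0.902) and Vcpip1 (0.898) for Nr3c2. Esrrg was closest to Wrnip1 (0.876), Fbxl17 (0.827) and Ccdc171 (0.813). For Pgrmc1 they were Tmem60 (0.885), Srp54c (0.849) and Czib (0.846), and for Pgrmc2 Srpk2 (0.813), Fam168a (0.805) and Lcmt2 (0.802). No gene named here stood for more than 1 member.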

How the data were processed

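The deposited table holds raw counts of reads per gene for 14 libraries, unnormalised. Per the submitters' processing notes, Trimmomatic 0.39, HISAT2 2.2.1, SAMtools and featureCounts 2.0.1 were used with mm10; annotation release, strand setting and treatment of shared reads are not stated there. Positions and exon lengths came from GENCODE M21 (GRCm38), matched by gene ID. Counts were tested with edgeR 4.0.16 in R 4.3.3 (TMM scaling, filterByExpr with a minimum count of 10 and a total of 15, 1 mean per group, robust quasi-likelihood test), with Benjamini-Hochberg adjustment over 14599 genes and a threshold of 0.05. Alternatives included DESeq2 1.42.0 and limma 3.58.1 voom. The fit was also run on simulated counts, and the outcome is not given here. Fold changes are given for Esr1 in the 4 comparisons within 1 sex or 1 projection and for every other member change there that exceeded its SE. From the lists were named the genes that passed and otherwise the gene with the smallest p per list in each comparison within 1 sex or 1 projection. Similar genes are the 3 with the highest correlation for members with 10 counts in 7 or more libraries. They were sought among 12337 tested protein-coding and long intergenic noncoding genes. Predicted genes, pseudogenes, mitochondrially encoded and Y-linked genes, Xist and Tsix were left out of that search. Members, lists and rules were chosen with earlier results of these data known. Intervals and floors cover counting error only.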

Additional observations from a re-analysis of the deposited data

Results flagged for a closer look

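In groups of 4 libraries, 3 of 18 member groups held 1 library far from the others by Dixon's ratio, where chance gives about 1 group in 20 if values are normally distributed. These values are not, and over all tested genes 30.8% of 28118 groups of 4 were past the same limit, a larger share than among the members. Esr1 was at 55.6 TMM-scaled CPM in female PiC-PrL replicate 3 (gap over range 0.989). Esrra was at 14.9 CPM in male PiC-PrL replicate 3 (0.995). Esr2 was at 0.0921 CPM in female PiC-PrL replicate 2, which is 1 count beside 3 libraries at 0 and gives the highest ratio by construction.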

How the results depend on the processing

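The count of members that passed was 0 in all 7 comparisons under every alternative run, except 1 (Esr1) between the projections in males with DESeq2 and with voom. Counts of genes that passed moved more. The covariate was the number of genes with a count. In PiC-PrL the sex comparison had 0 by edgeR, 38 with no filter, 1 with 10 counts in 7 libraries, 1017 by DESeq2, 8 by voom and 0 to 1 with 1 library left out. Sex in PiC-MeA had 0, against 45, 777 and 1761 with no filter, DESeq2 and voom, and 0 to 14 with 1 library left out (14 without male PiC-MeA replicate 1). The projections in females had 0, against 46, 628 and 31, and 0 to 1 with 1 library left out. In males they had 88, against 159, 2022 and 2617, 0 with the covariate and 20 to 139 with 1 library left out (20 without male PiC-PrL replicate 2, 139 without female PiC-MeA replicate 3). Sex averaged over projections had 2, against 17, 647 and 4, 1 with the stricter filter, 0 with the covariate and 1 to 2 with 1 library left out. The projections averaged over sexes had 120, against 452, 1492 and 1277, 75 with the stricter filter, 0 with the covariate and 39 to 128 with 1 library left out (39 without female PiC-MeA replicate 2). The difference between the sex differences had 0, against 84, 1156 and 729, and 0 to 5 with 1 library left out. By direction, the calls between the projections in males were 11.4% higher by edgeR, 73% by DESeq2 and 83% by voom. Averaged over sexes they were 23.3% higher by edgeR, 63.9% with no filter, 8% with the stricter filter, 64.4% by DESeq2 and 80.4% by voom.

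Residuals of 19 pairs of tubes with the same replicate number correlated at -0.0367 to 0.0495. Pairs with different numbers were not compared, so whether the numbers pair the tubes was not tested. With a replicate block 38 genes passed between the projections in males, 43 averaged over sexes and 1 between the sexes averaged over projections, and the block reversed no fold change; it lost the calls of Mdh2, Cycs and Paqr3 and that of Sdhb averaged over sexes.

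With the covariate Esr1 reversed to -5.05 for sex in PiC-MeA, to -0.63 between the projections in females and to -3.37 ± 17.7 in males, Esrrg to -0.90 for sex in PiC-PrL, and Sdhb to 0.25 in males and 0.10 averaged over sexes, Mdh2 to 1.00 and Cycs to 0.00485. With 1 library left out, Esr1 ranged from -4.97 to 0.21 for sex in PiC-PrL and from -1.14 to 4.63 between the projections in females, and Esrrg from -0.23 to 2.41 for sex in PiC-PrL. Of the 70 values of the 5 called changes of pathway genes with 1 library left out, 30 missed the threshold. The causes were not tested. Leaving out the 3 male PiC-MeA libraries, added after seeing the data, changed no direction or call of the 7 member changes it allows. Members under 10 counts in most tubes are limited by counting error.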
